A study of Mus musculus with 6 samples.

Results

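Genes of the germ line, of meiosis and of the piRNA pathway were followed in mouse embryonic stem cells (ESCs) that cannot make canonical microRNAs (miRNAs). The list holds 42 genes chosen by their known roles, with earlier results of these data known. Of these, 41 had an array row of their own among the 22180 genes tested. Sycp3 shares its only row with Chpt1 and was not analysed here. All 6 samples were Dgcr8-/- ESCs. Dgcr8 binds primary miRNA transcripts for the nuclease Drosha, so these cells lack the miRNAs that depend on it, in the control group as well. The control group is 3 samples with a control hairpin, and the other group is 3 samples expressing miR-302 mimics. The design text gives the 3 of each as independent biological samples. No source used here gives the strain, the promoter that drives the hairpin, the number of clones or the time in culture. Dgcr8 itself shares its row with Mir1306, so its loss was not checked. Values are expression levels on a log2 scale, and a difference of 1 is a doubling. With 3 arrays a group, precision is limited throughout. Levels of different genes cannot be set against each other, since each row has its own probes.

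Germ cells arise from pluripotent cells of the embryo, erase most of their DNA methylation and then enter meiosis, in which homologous chromosomes pair along the synaptonemal complex and exchange DNA after programmed breaks. In the male germ line, PIWI proteins carry small RNAs called piRNAs that silence transposons, and Tudor domain proteins hold this machinery together in cytoplasmic granules. Many of these genes have CpG-rich promoters that are methylated and silent in somatic cells, while a part of them is transcribed in cultured ESCs. The miRNAs of the miR-302 family are abundant in pluripotent cells and recognise targets mainly through the seed, bases 2 to 8 of the mature strand.

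The mature 3p strands of miR-302 in RefSeq (GRCm38.p6) are shown as members of the miRNA family that the labels name. They lie on the plus strand of chromosome 3, with miR-302b-3p at chr3:127545275-127545297, miR-302c-3p at chr3:127545406-127545427 and miR-302d-3p at chr3:127545665-127545687. Capitals mark bases 2 to 8. The annotated miR-302c-3p starts 1 base later than the others, so its seed is shifted by a base along the same run. The labels do not say which members the hairpin gave, and miR-302a-3p belongs to the family too.
mmu-miR-302b-3p: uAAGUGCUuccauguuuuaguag
mmu-miR-302c-3p: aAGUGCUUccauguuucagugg
mmu-miR-302d-3p: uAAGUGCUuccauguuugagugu

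ESC marker genes were read in both groups, and no detection call was used. Of 8 such genes none was called different by limma at an adjusted p under 0.05, with 3 at an unadjusted p under 0.05 and 2 lower in a fit with an intensity trend and a robust prior. Sox2 and Zfp42 were called lower without miR-302 replicate 1 (−0.44 and −0.37, adjusted p = 0.00627 and 0.0119). Over all genes tested 16.4% were called with all arrays, and 13.1% were called lower without that replicate. The mean log2 level of the 8 genes lay between 10.56 and 10.60 on the control arrays, and was 10.67, 10.40 and 10.43 in miR-302 replicates 1, 2 and 3. Dppa5a read the lowest of them, with means of 5.64 in control cells and 5.44 with miR-302. The arrays of miR-302 replicate 1 and of replicates 2 and 3 stood apart. Of all genes tested, 4.12% lay at least 0.5 (log2) above the mean of replicates 2 and 3 in replicate 1 and 4.94% at least 0.5 below it, against 0.834% to 1.28% in either direction for each control array. Counts of calls, and the genes whose call depends on that array, are therefore given with and without it below. These are bulk samples, in which fewer cells with a transcript and less of it per cell cannot be told apart.

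With miR-302, 7 of the 41 germ line genes rose and 4 fell (limma, adjusted p under 0.05 over all genes tested), where 7.18% of all genes rose and 9.25% fell. The higher genes were Tdrkh, Tdrd5, Tex15, Taf7l, Ddx4, Rnf17 and Tdrd1. The lower genes were Tex14, Dnd1, Rec8 and Nanos3. Of the rises, 4 were in the piRNA pathway, in which none of 13 genes was called lower with all arrays and 2, Piwil2 and Mov10l1, were without miR-302 replicate 1. The median log2 difference of the 41 genes was −0.07, beside 0.01 for all genes, with 16 above 0 and 25 below. In 7 genes every miR-302 array was above every control array and in 6 every one was below, against 16.8% and 19.0% of all genes. The call of Tdrkh, Tdrd5, Tex15, Dnd1 and Rec8 held in each of the 6 fits that left out 1 array. Without miR-302 replicate 1 the counts were 7 higher and 11 lower (11.2% and 13.1% of all genes). Without any 1 of the other 5 arrays they were 3 or 4 higher and 2 or 3 lower, where 685 to 861 of all 22180 genes rose and 1043 to 1216 fell. With the replicate number as a block they were 3 higher and 3 lower, where 964 of all genes rose and 1329 fell. The calls of Ddx4, Taf7l, Rnf17, Tdrd1 and Tex14 ended in that fit.

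**Figure D1:**
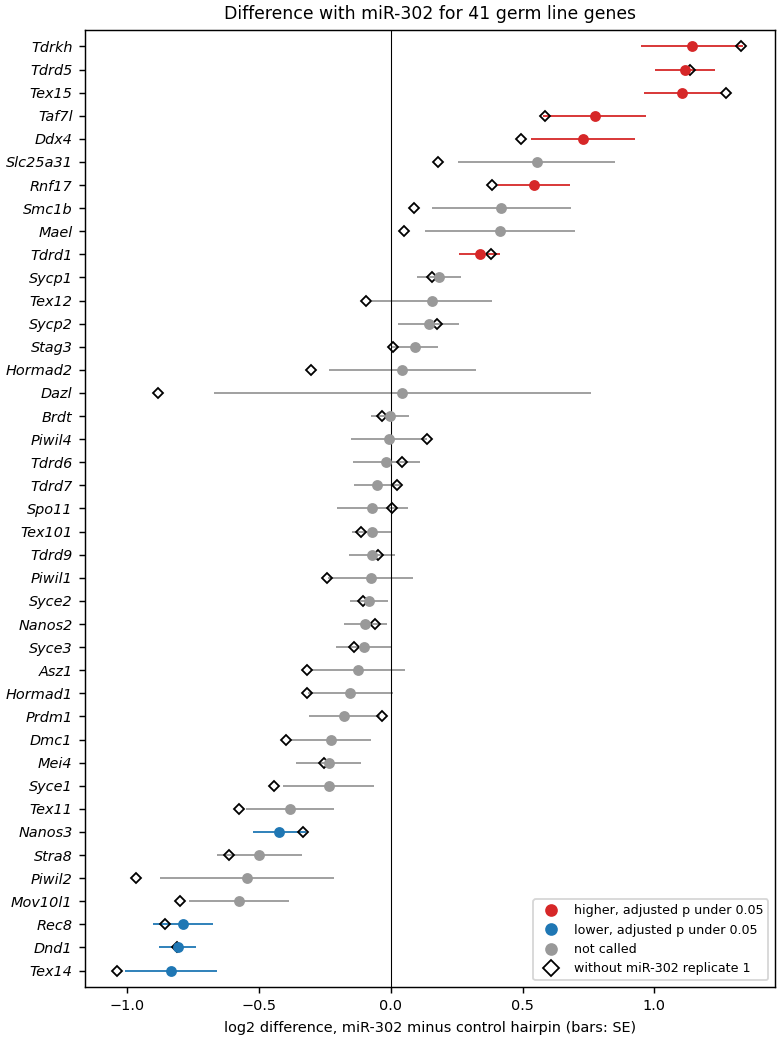
Log2 difference between miR-302 and control hairpin for 41 germ line genes, ordered by size, with circles for the fit of all 6 arrays, bars for its SE and open diamonds for the value without miR-302 replicate 1. Tdrkh, Tdrd5 and Tex15 lie above 1 at the top with their diamonds beyond or close to their circles, while the diamond of Dazl lies at −0.89 and its circle at 0.04.

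Regulators of germ cell fate moved in both directions. Of 12 measured, Taf7l and Ddx4 rose, and Tex14, Dnd1 and Nanos3 fell, where 7.18% of all genes rose and 9.25% fell. Without miR-302 replicate 1 the counts were 2 higher and 5 lower, and the shares of all genes were also larger, 11.2% and 13.1%. Dnd1, an RNA-binding protein that keeps primordial germ cells alive, read 6.79, 6.79 and 6.66 on the control arrays and 5.94, 5.91 and 5.96 with miR-302. The groups were far apart beside their spread, and the log2 change was −0.81 ± 0.07 (SE), 1.75-fold lower (limma, adjusted p = 0.00124). Nanos3, a translational repressor needed by the same cells, read 7.70, 7.83 and 7.82 in control cells and 7.18, 7.39 and 7.51 with miR-302. Its fall was smaller, −0.42 ± 0.10 (SE; limma, adjusted p = 0.0333). Its call was lost when any control array or miR-302 replicate 2 was left out (adjusted p = 0.0731 to 0.113). Nanos2, which acts later, in male germ cells, was 5.59 ± 0.08 (SD, n = 3) and 5.49 ± 0.09. Prdm1, a repressor that starts germ cell specification, was 8.51 ± 0.10 and 8.34 ± 0.25. Neither passed the test.

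Tex14, which keeps the bridges between dividing germ cells open, fell from 9.03, 9.10 and 9.13 to 8.67, 8.10 and 7.99. All miR-302 arrays were below all control arrays, with replicate 1 the closest to them. The change was −0.83 ± 0.17 (SE; limma, adjusted p = 0.0215) and −1.04 without replicate 1 (adjusted p = 0.00052). Leaving out any of the other 5 arrays ended the call (adjusted p = 0.0652 to 0.0784). Ddx4, the germ cell RNA helicase also known as Vasa, read 8.70, 8.93 and 8.89 in control cells and 10.04, 9.34 and 9.33 with miR-302. Replicate 1 was the highest, and replicates 2 and 3 were also above every control array. The change was 0.73 ± 0.20 (SE), 1.66-fold (limma, adjusted p = 0.0499), and 0.49 without replicate 1 (adjusted p = 0.0126). Its call ended when any other array was left out (adjusted p = 0.0674 to 0.152). It also ended when each array was centred on its median and with the replicate number as a block (adjusted p = 0.0574 and 0.103). Taf7l, a germ cell subunit of the TFIID transcription factor, went from 3.06, 3.03 and 3.49 to 4.34, 3.86 and 3.70, a change of 0.77 ± 0.20 (SE; limma, adjusted p = 0.0406), and 0.59 without replicate 1 (adjusted p = 0.0465). Leaving out control replicate 1 or 2, or miR-302 replicate 2 or 3, ended its call (adjusted p = 0.0514 to 0.131). These are low values, and no detection call was used here to tell them from background.

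Dazl, an RNA-binding protein that licenses germ cells for meiosis, had the widest spread of the list. It read 6.11, 6.34 and 6.18 in control cells, and 8.11, 5.34 and 5.31 in miR-302 replicates 1, 2 and 3. Replicate 1 was above every control array, while replicates 2 and 3 were below them all. The mean difference was 0.04 ± 0.72 (SE; limma, adjusted p = 0.98), and without replicate 1 it was −0.89 (adjusted p = 0.00162). Slc25a31, a germ cell carrier that exchanges ADP and ATP in mitochondria, read 5.58, 5.32 and 5.48 in control cells and 6.76, 5.58 and 5.70 with miR-302. Its difference of 0.55 ± 0.30 (SE) was not called (adjusted p = 0.274), and 0.18 remained without replicate 1. Stra8, the retinoic acid-induced gene that starts meiosis, read 5.58, 5.83 and 5.51 in control cells and 5.37, 4.81 and 5.24 with miR-302. The groups did not overlap, but the difference of −0.50 ± 0.16 (SE) missed the threshold (adjusted p = 0.0847) and passed it without replicate 1 (−0.61, adjusted p = 0.0416). Brdt, a testis bromodomain protein, was 4.96 ± 0.07 (SD, n = 3) and 4.96 ± 0.06, and Tex101, a surface protein of germ cells, 5.30 ± 0.07 and 5.23 ± 0.07. Neither was called.

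**Figure D2:**
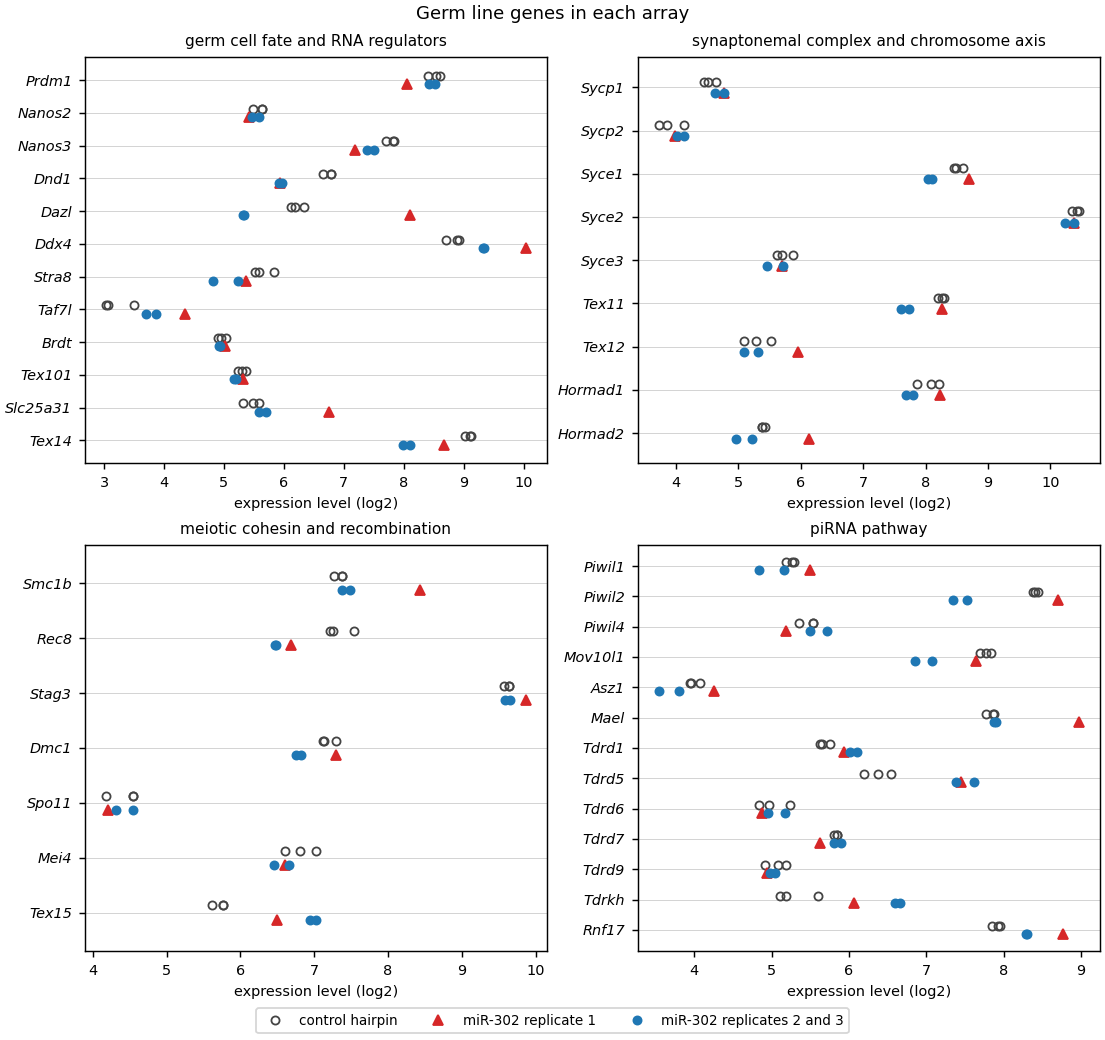
Log2 expression level of each of 41 germ line genes on each of the 6 arrays, in 4 panels by role, with open circles for control hairpin, triangles for miR-302 replicate 1 and filled circles for replicates 2 and 3. Dazl, Mael, Smc1b and Slc25a31 show the triangle to the right of all other points, while for Tdrd5, Tex15 and Tdrkh all miR-302 arrays lie to the right of the control arrays. Levels of different genes are not comparable.

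Genes of the synaptonemal complex and the chromosome axis gave no call. Of 9 measured, none rose or fell by limma, where 7.18% of all genes rose and 9.25% fell. None was at an unadjusted p under 0.05, where 6698 of all 22180 genes were, and none was called in a fit with an intensity trend and a robust prior. A list of 9 genes is too short for the absence of calls to be read as a result about it. The log2 differences of the 9 genes ran from −0.38 to 0.18. Sycp1, the transverse filament of the complex, was 4.54 ± 0.10 (SD, n = 3) in control cells and 4.73 ± 0.08 with miR-302. Sycp2, a component of its lateral elements, was 3.91 ± 0.20 and 4.05 ± 0.08. Among proteins of the central element, Syce2 was 10.41 ± 0.05 and 10.33 ± 0.08 and Syce3 5.74 ± 0.13 and 5.63 ± 0.14.

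In the other 5 genes of this list replicate 1 was the highest of the miR-302 arrays and apart from replicates 2 and 3. Hormad1, an axis protein that monitors chromosome pairing, read 8.08, 7.87 and 8.22 in control cells and 8.23, 7.80 and 7.68 with miR-302. Replicate 1 was just above and replicates 2 and 3 below all control arrays, and the difference was not called with replicate 1 (−0.15, adjusted p = 0.591) or without it (−0.32, adjusted p = 0.113). Syce1, also of the central element, read 8.46, 8.60 and 8.48 in control cells and 8.69, 8.10 and 8.04 with miR-302. Tex11, an X-linked crossover factor, read 8.29, 8.20 and 8.27, then 8.26, 7.61 and 7.74. Without replicate 1 these 2 genes were called lower, by −0.44 (limma, adjusted p = 0.00963) and −0.58 (adjusted p = 0.00376). In that fit 13.1% of all genes were called lower. Hormad2, the partner of Hormad1, read 5.39, 5.43 and 5.38 in control cells and 6.14, 5.22 and 4.97 with miR-302. Replicate 1 was above and replicates 2 and 3 were below all control arrays. Tex12, a further central element protein, read 5.28, 5.52 and 5.10, then 5.96, 5.09 and 5.32. Neither of the last pair was called without replicate 1 (adjusted p = 0.0632 and 0.698). These 5 genes, like Dazl, Smc1b, Mael, Dmc1, Piwil1 and Asz1, are given by array because of their values, outside the rule for such genes.

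Of 7 genes of meiotic cohesin and recombination, Tex15 rose and Rec8 fell, and without miR-302 replicate 1 Dmc1 was called lower too. Over all genes 7.18% rose and 9.25% fell, and 11.2% and 13.1% without that replicate. Tex15, needed for repair of meiotic breaks and for silencing of transposons in male germ cells, read 5.77, 5.61 and 5.76 in control cells and 6.49, 7.02 and 6.95 with miR-302. The groups were clearly separate, with replicate 1 the lowest of the miR-302 arrays, and the change was 1.11 ± 0.15 (SE), 2.15-fold (limma, adjusted p = 0.00473). Rec8, the kleisin subunit that replaces its mitotic counterpart in meiotic cohesin, read 7.25, 7.54 and 7.21, then 6.68, 6.47 and 6.48. It fell by 0.79 on the log2 scale with an SE of 0.11 (limma, adjusted p = 0.00616), and here replicate 1 lay close to replicates 2 and 3.

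The other meiotic cohesin subunits did not follow Rec8. Smc1b read 7.38, 7.27 and 7.38 in control cells and 8.43, 7.48 and 7.38 with miR-302. Stag3 was 9.62 ± 0.04 (SD, n = 3) and 9.71 ± 0.15. Neither was called (limma, adjusted p = 0.348 and 0.572), and the difference of Smc1b was 0.42 with and 0.09 without replicate 1. Dmc1, the recombinase of meiotic strand exchange, read 7.29, 7.12 and 7.14, then 7.30, 6.82 and 6.75. It was called lower without replicate 1 (−0.40, adjusted p = 0.0181) and not with it (adjusted p = 0.377). Spo11, which cuts DNA to start recombination, was 4.42 ± 0.21 and 4.35 ± 0.17, and Mei4, a cofactor of that cut, was 6.81 ± 0.22 and 6.58 ± 0.10. Mei4 has a further row, with means of 2.83 and 2.94, whose difference has the opposite sign.

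In the piRNA pathway the Tudor domain genes were split between those that rose and those that did not pass the test. Tdrkh, a Tudor protein of the mitochondrial surface that helps to trim piRNAs, read 5.18, 5.6 and 5.11 in control cells and 6.07, 6.66 and 6.59 with miR-302. Every miR-302 array was above the control arrays, and the change was 1.14 ± 0.19 (SE), 2.21-fold (limma, adjusted p = 0.0106). Tdrd5, which is required for the germ granules of spermatids and for transposon silencing, read 6.55, 6.37 and 6.19, then 7.45, 7.62 and 7.39. This was the rise with the smallest p of the 41 genes, 1.12 ± 0.11 (SE), 2.17-fold (limma, adjusted p = 0.00212), and the 3 miR-302 arrays were close together. Rnf17, a Tudor protein that limits the piRNA amplification cycle, went from 7.85, 7.95 and 7.93 to 8.77, 8.29 and 8.30, a change of 0.54 ± 0.14 (SE; adjusted p = 0.0408). Tdrd1, the scaffold that binds PIWI proteins, went from 5.76, 5.63 and 5.65 to 5.93, 6.11 and 6.01, a change of 0.34 ± 0.08 (SE; adjusted p = 0.0321). Both calls were kept without miR-302 replicate 1 and ended when any of the other 5 arrays was left out (adjusted p = 0.0575 to 0.128 for Rnf17 and 0.0648 to 0.112 for Tdrd1). Tdrd6 was 5.02 ± 0.20 (SD, n = 3) and 5.0 ± 0.15, Tdrd7 5.83 ± 0.02 and 5.78 ± 0.14, and Tdrd9 5.06 ± 0.13 and 4.99 ± 0.05, and none of these was called.

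None of the PIWI genes was called with all arrays. Piwil2, the PIWI protein of primary piRNA processing, read 8.38, 8.40 and 8.44 in control cells and 8.70, 7.35 and 7.53 with miR-302. Replicate 1 was above all control arrays and replicates 2 and 3 about a log2 unit below them. The difference was −0.55 ± 0.33 (SE; limma, adjusted p = 0.325), and −0.97 without replicate 1 (adjusted p = 0.000865). Piwil1 read 5.26, 5.18 and 5.29, then 5.50, 4.84 and 5.16, and Piwil4, the nuclear PIWI protein, was 5.47 ± 0.11 (SD, n = 3) and 5.47 ± 0.27. Mov10l1, the helicase that feeds piRNA precursors into processing, read 7.70, 7.77 and 7.84, then 7.64, 7.08 and 6.86. Its groups did not overlap, the difference of −0.58 ± 0.19 (SE) missed the threshold (adjusted p = 0.0901), and it was called without replicate 1 (−0.80, adjusted p = 0.00274). Asz1, a mitochondrial scaffold of the pathway, read 4.07, 3.96 and 3.94, then 4.26, 3.54 and 3.80. Mael, a granule protein needed for transposon silencing, read 7.77, 7.87 and 7.86, then 8.97, 7.90 and 7.87. Only replicate 1 of Mael was clear of the control arrays, and its difference was 0.41 ± 0.29 (SE; adjusted p = 0.392) with and 0.05 without that array.

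Replicate 1 of the miR-302 group was thus the high array for a large share of the list. In 16 of the 41 genes, or 39.0%, it lay at least 0.5 (log2) above the mean of replicates 2 and 3, where 4.12% of all genes did, and in 1 gene, Tdrkh, at least 0.5 below, where 4.94% of all genes did. No germ line gene lay that far above the other arrays of its group on any of the other 5 arrays. The 16 genes were Dazl, Piwil2, Slc25a31, Mael, Hormad2, Smc1b, Tex12, Ddx4, Mov10l1, Tex14, Syce1, Asz1, Tex11, Taf7l, Dmc1 and Piwil1. In 13 of them replicate 1 was above all control arrays. In 10 of them replicates 2 and 3 were both below all control arrays, and in 2, Ddx4 and Taf7l, both were above. The gap of Dazl, 2.79, was the second in rank of all genes tested, and 6 germ line genes were among the first 100. Replicate 1 above and replicates 2 and 3 below every control array was measured in 8 germ line genes and in 2.82% of all genes. The limit of 0.5 was chosen with these values known, and no test of the count was made. The 7 genes called only without replicate 1 were Dazl, Stra8, Syce1, Tex11, Dmc1, Piwil2 and Mov10l1, all lower, and 6 of them are among the 16. Leaving out a high array lowers the mean and the spread of its group, so this overlap partly follows from how the 16 were picked.

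**Figure D3:**
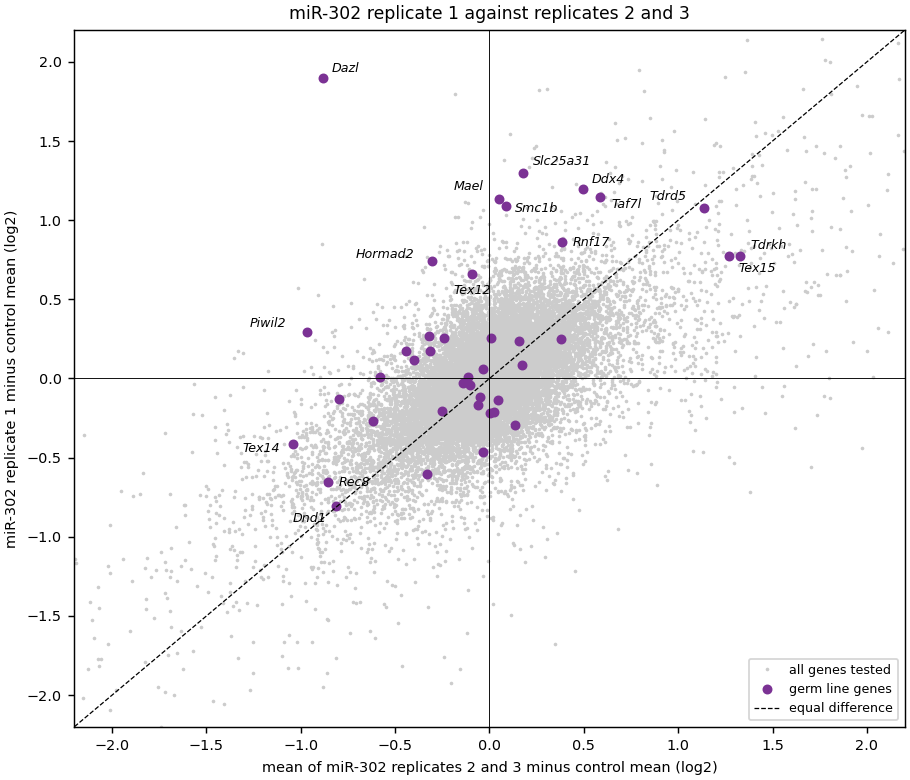
Difference of miR-302 replicate 1 from the control mean (vertical axis, log2) against that of the mean of replicates 2 and 3 (horizontal axis, log2), for all genes tested in grey and for 41 germ line genes in purple, with a dashed line where both are equal. Dazl lies in the upper left, Mael, Smc1b and Slc25a31 lie above 1 near the vertical axis, and Tdrd5 and Dnd1 lie close to the line. The axes end at 2.2, and 118 genes outside them, none of them from the germ line list, are not drawn.

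Further genes of the same pathways showed both patterns. Over all genes tested 7.18% were called higher and 9.25% lower, and 11.2% and 13.1% without miR-302 replicate 1. Of 11 other piRNA pathway genes 4 were called lower and none higher with all arrays (limma, with 5 at an unadjusted p under 0.05). Without miR-302 replicate 1, 6 were lower and 1 higher, with Tdrd12 (−0.59, adjusted p = 0.00856), Gpat2 (−0.45, adjusted p = 0.0298) and Dnmt3l added, and without any 1 other array 2 were lower. Morc1, which silences transposons in male germ cells, read 8.01, 8.09 and 8.01 in control cells and 6.60, 6.76 and 6.59 with miR-302, a change of −1.39 ± 0.08 (SE; adjusted p = 0.000305). Pld6, the mitochondrial nuclease of piRNA processing, was lower by −0.56 ± 0.07 (SE; adjusted p = 0.00391). Mybl1, the transcription factor that drives piRNA clusters in meiosis, and Btbd18, a regulator of those clusters, were lower by −0.30 ± 0.06 and −0.35 ± 0.09 (SE; adjusted p = 0.0224 and 0.0369). Leaving out any array but miR-302 replicate 1 ended both calls (adjusted p = 0.07 to 0.0902 and 0.0789 to 0.123). Of 23 other meiosis genes Dmrt1 rose, by 0.83 ± 0.10 (SE; adjusted p = 0.00312), and Ythdc2, Mnd1 and Mlh3 fell. The share called, 17.4%, was near the 16.4% of all genes. Without miR-302 replicate 1 the counts were 2 higher and 6 lower, with Meioc, Rec114, Trip13 (−0.28, adjusted p = 0.022) and Hsf2bp (−0.32, adjusted p = 0.021) added. Ythdc2, the RNA helicase that supports entry into meiosis with Meioc, went from 8.54 ± 0.08 (SD, n = 3) to 7.92 ± 0.23 (adjusted p = 0.0192). Mnd1, a partner of Dmc1, and the mismatch repair gene Mlh3 changed by −0.55 ± 0.12 and −0.33 ± 0.09 (SE). The calls of Ythdc2 and Mnd1 ended when any control array was left out, and also without miR-302 replicate 2 for Ythdc2 (adjusted p = 0.0568 to 0.0763) and replicate 3 for Mnd1 (0.0622 to 0.0984). That of Mlh3 was kept only without miR-302 replicate 1 (adjusted p = 0.106 to 0.132 otherwise).

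Meioc itself was 7.56 ± 0.03 (SD, n = 3) in control cells and 9.39, 7.83 and 7.90 with miR-302. Rec114, a cofactor of Spo11 beside Mei4, was 6.78 ± 0.04 and 7.63, 6.13 and 5.66. In both, replicate 1 was the high array, and neither was called with all arrays (0.81 and −0.31, adjusted p = 0.225 and 0.714). Without replicate 1, Meioc was called higher (0.31, adjusted p = 0.0207) and Rec114 lower (−0.89, adjusted p = 0.00866). These genes, and each gene outside the main list named for a call made only without replicate 1, were chosen after their values were seen.

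Of 12 genes of germ cell specification 3 rose and 3 fell, beside 7.18% and 9.25% of all genes. Without miR-302 replicate 1 the counts were 4 and 4, beside 11.2% and 13.1% of all genes. Those added were Prdm14, which directs germ cell specification, and Tfap2c, which acts with it. Prdm14 read 9.57, 9.72 and 9.6 in control cells, then 9.56, 8.62 and 8.59, a difference of −0.71 (adjusted p = 0.112) and of −1.02 without replicate 1 (adjusted p = 0.000598). Tfap2c differed by 0.35 (adjusted p = 0.0602) and by 0.44 without replicate 1 (adjusted p = 0.0121). Dppa3, a factor that shields methylated DNA in the zygote, read 4.88, 4.96 and 4.98 in control cells and 6.58, 5.99 and 6.17 with miR-302, a rise of 1.31 ± 0.15 (SE; limma, adjusted p = 0.00295). Lin28a, which blocks let-7 maturation in primordial germ cells and ESCs, and Dmrt1 also rose, Lin28a by 1.25 ± 0.07 (SE). Kit, the receptor that keeps migrating germ cells alive, read 9.73, 9.78 and 9.82, then 9.08, 8.36 and 8.21, a change of −1.23 ± 0.22 (SE; adjusted p = 0.0119). Ifitm3, a surface marker of early germ cells, and Sohlh2, a transcription factor of young germ cells, changed by −0.58 ± 0.09 and −0.59 ± 0.15 (SE; adjusted p = 0.00774 and 0.0439). Kit missed the threshold without control replicate 3 (adjusted p = 0.051), and Sohlh2 without any array but miR-302 replicate 1 (0.0597 to 0.126).

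**Figure D4:**
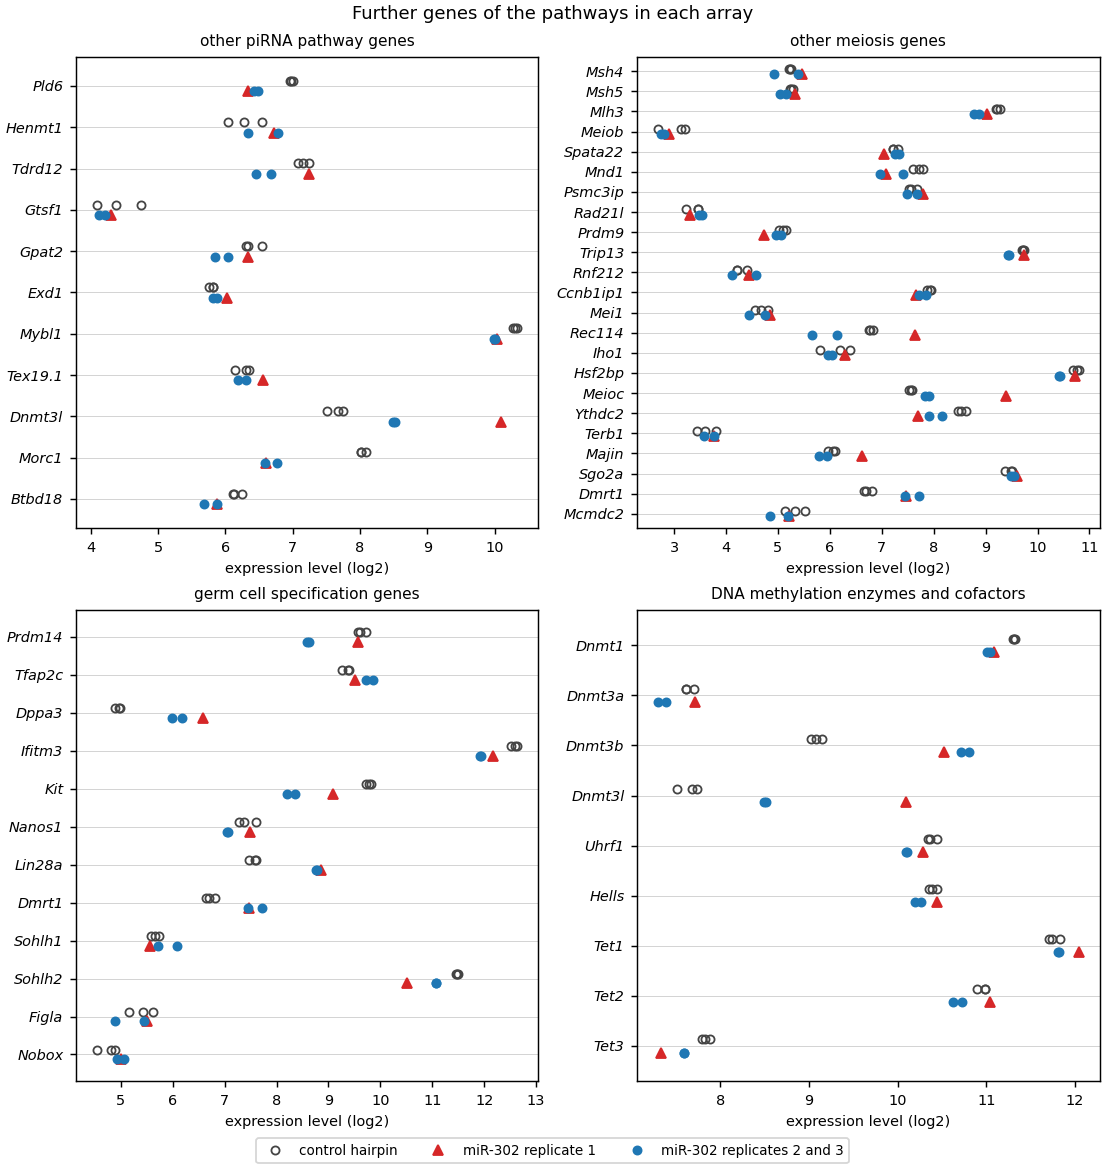
Log2 expression level of further piRNA, meiosis, germ cell specification and DNA methylation genes on each of the 6 arrays, with open circles for control hairpin, triangles for miR-302 replicate 1 and filled circles for replicates 2 and 3. Morc1 and Dnmt3b show separate groups, and Dnmt3l, Meioc and Rec114 have the triangle far to the right of replicates 2 and 3. Dmrt1 and Dnmt3l are in 2 lists each.

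Because DNA methylation silences many of the germ line genes, its enzymes were read on the same arrays. Of 9 measured, Dnmt3b rose and Dnmt1 fell, where 7.18% of all genes rose and 9.25% fell. Without miR-302 replicate 1 the counts were 2 higher and 5 lower, where 11.2% of all genes rose and 13.1% fell. Dnmt3l was then called higher and Dnmt3a, Uhrf1, Tet2 and Tet3 were called lower, by −0.25 to −0.30. A fit with an intensity trend and a robust prior gave 1 higher and 3 lower, and one with the replicate number as a block 1 higher and none lower. Dnmt3b, a methyltransferase that sets new methylation, went from 9.02, 9.08 and 9.15 to 10.52, 10.71 and 10.81, a change of 1.6 ± 0.09 (SE; limma, adjusted p = 0.000349). Dnmt1, which copies methylation at replication, changed by −0.26 ± 0.06 (SE; adjusted p = 0.0354), a call kept without miR-302 replicate 1 and ended by leaving out any other array (0.105 to 0.118). Dnmt3l, the cofactor of new methylation in germ cells, read 7.74, 7.68 and 7.51 in control cells and 10.10, 8.49 and 8.52 with miR-302. All miR-302 arrays were above the control arrays, replicate 1 by far the most, and the difference of 1.39 ± 0.42 (SE) missed the threshold (adjusted p = 0.0671) and passed it without replicate 1 (0.86, adjusted p = 0.00184). Of 13 repressors of germ line genes, E2f6 and Setdb1 rose and Pcgf6 fell, with the same counts without miR-302 replicate 1. E2f6, the DNA-binding subunit of a polycomb complex that represses meiotic genes, read 8.26, 8.31 and 8.30, then 9.04, 8.77 and 8.83, a rise of 0.59 ± 0.09 (SE; adjusted p = 0.00714). Setdb1, a histone methyltransferase, rose by 0.34 ± 0.06 (SE), and Pcgf6, another subunit of that complex, changed by −0.44 ± 0.08. Setdb1 missed the threshold without any 1 control array or miR-302 replicate 2 (adjusted p = 0.0511 to 0.0578), and Pcgf6 without control replicate 2 or 3 or miR-302 replicate 3 (0.0509 to 0.0552). Any part of these genes in the levels of the germ line genes was not tested.

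The promoters of 35 of the 42 listed genes are in the RefSeq table used (GRCm38.p6), as the 250 bases before an annotated start. They were rich in CpG, with a median of 16 CpG per gene where the table's genes that were tested here had 11 and all its genes 6 (taking for each gene the promoter with most). The E-box CACGTG, a palindrome bound among others by the Mga and Max proteins of the complex that holds E2f6, was in a promoter of 15 of the 35 genes, or 42.9%, of 7.83% of the 16990 tested genes with an entry and of 6.86% of all 27025 genes in the table. Among promoters with at least 10 CpG the shares were 46.7% of the listed genes and 10.2% of all genes. The core TCCCGC of an E2F site, searched on both strands, was in 31.4% of the listed, 24.2% of the tested and 18.8% of all genes. Among promoters with at least 10 CpG its share was 36.7% of the listed and 39.3% of all genes, so that no excess was seen there. Both motifs contain a CpG, they can overlap each other by a single base at most, and a match is not a measured site. Of the higher genes in the table, Ddx4, Taf7l and Tdrd1 hold an E-box and Tdrd5 and Tdrkh do not, and none of the 3 lower genes in it does. Of the 26 listed genes in it that were not called, 11 hold one, or 42.3%. The called genes are few, and a link between the E-box and the call was not tested. Dnd1, Tex15 and Rnf17 are among the genes without an entry.

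Shown are the promoter of the rise with the smallest p (Tdrd5, minus strand, chr1:156303349-156303598), those of Ddx4 (minus strand, chr13:112652311-112652560), Mael (minus strand, chr1:166238745-166238994) and Dazl (minus strand, chr17:50293621-50293870), in which replicate 1 was the high array, and that of Stra8 (plus strand, chr6:34920698-34920947) as one poor in CpG. Each holds the 250 bases before the start, 5′ to 3′, with every CpG in capitals. They hold 40, 31, 18, 20 and 5 CpG in this order. The E-box of Ddx4 begins 29 bases and that of Mael 223 bases before the start.
Tdrd5: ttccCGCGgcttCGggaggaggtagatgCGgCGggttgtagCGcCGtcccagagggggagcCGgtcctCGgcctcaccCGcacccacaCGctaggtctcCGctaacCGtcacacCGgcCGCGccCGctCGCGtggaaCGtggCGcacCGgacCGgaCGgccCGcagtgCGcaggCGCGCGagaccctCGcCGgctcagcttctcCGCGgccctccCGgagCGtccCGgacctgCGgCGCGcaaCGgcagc
Ddx4: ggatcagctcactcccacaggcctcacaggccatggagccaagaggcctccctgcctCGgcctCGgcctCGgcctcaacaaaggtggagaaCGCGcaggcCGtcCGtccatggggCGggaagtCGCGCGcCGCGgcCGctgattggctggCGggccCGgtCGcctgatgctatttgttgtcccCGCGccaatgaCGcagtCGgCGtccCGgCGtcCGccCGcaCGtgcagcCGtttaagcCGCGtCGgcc
Mael: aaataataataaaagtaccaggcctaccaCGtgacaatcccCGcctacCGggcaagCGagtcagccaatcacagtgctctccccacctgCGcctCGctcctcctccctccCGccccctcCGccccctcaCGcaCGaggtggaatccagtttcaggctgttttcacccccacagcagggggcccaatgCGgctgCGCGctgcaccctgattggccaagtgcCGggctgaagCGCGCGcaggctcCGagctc
Dazl: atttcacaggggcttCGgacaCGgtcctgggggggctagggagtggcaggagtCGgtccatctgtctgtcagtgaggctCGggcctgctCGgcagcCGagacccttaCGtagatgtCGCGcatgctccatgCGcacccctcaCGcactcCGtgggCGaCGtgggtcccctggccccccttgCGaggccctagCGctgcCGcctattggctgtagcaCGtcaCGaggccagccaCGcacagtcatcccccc
Stra8: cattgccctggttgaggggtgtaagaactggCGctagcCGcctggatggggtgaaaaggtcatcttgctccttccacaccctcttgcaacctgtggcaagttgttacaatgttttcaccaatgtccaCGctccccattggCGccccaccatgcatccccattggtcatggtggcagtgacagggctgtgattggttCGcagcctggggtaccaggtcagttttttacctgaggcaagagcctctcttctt

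Markers of other cells were read for the groups in which germ line genes moved. Beside the counts below, 7.18% of all genes rose and 9.25% fell, and 11.2% and 13.1% without miR-302 replicate 1. Of 7 markers of haploid spermatids none was called by limma, with none at an unadjusted p under 0.05 and none with an intensity trend and a robust prior, and their mean log2 level was 5.65 to 5.68 on the control arrays and 5.64 to 5.74 on the miR-302 arrays. That mean is raised by Odf1, at 12.85 ± 0.07 (SD, n = 3) and 12.96 ± 0.02. Its miR-302 arrays were all above its control arrays (0.11; limma, adjusted p = 0.337). Of 7 oocyte markers Zp3, a coat protein of the egg, fell, from 7.59 ± 0.13 (SD, n = 3) to 6.41 ± 0.41 (adjusted p = 0.0107), and the mean level of the list was 4.67 to 4.75 and 4.52 to 4.70. Of 9 markers of somatic gonad cells Inha, an inhibin subunit, and Gata4 fell, by 1.20 and 0.43 on the log2 scale, and the mean level was 6.08 to 6.14 and 5.99 to 6.13. Gata4 was called without miR-302 replicate 1 and missed the threshold when any other array was left out (adjusted p = 0.0545 to 0.127). Of 7 fibroblast markers Thy1 fell, by 0.38, with the same arrays deciding its call (0.0591 to 0.11), and the mean level was 5.01 to 5.13 and 5.11 to 5.28. With all arrays, 5 of 7 oocyte, 5 of 9 gonad and 5 of 7 fibroblast markers differed upwards. The median log2 differences of these lists were 0.03, 0.14 and 0.15, beside 0.01 for all genes. Leaving out miR-302 replicate 1, Wt1 was called higher among the gonad markers, and Col1a1 higher and Lum lower among the fibroblast markers. Trophectoderm markers were called higher in 8 of 8 without that replicate and rose in 6 of 8 with all arrays, among them the keratin genes Krt18 and Krt8 and the transcription factor gene Gata3, by 4.03, 3.31 and 1.48. Their mean level was 5.86 to 5.96 on the control arrays, and 7.12, 7.80 and 7.85 in miR-302 replicates 1, 2 and 3, so that replicate 1 was the lowest of its group there and the highest for the germ line list, whose means were 6.73, 6.40 and 6.40. Of 5 markers of 2-cell-like cells Zscan4c fell, from 6.76 ± 0.17 to 6.05, 4.55 and 5.07 (adjusted p = 0.0285, and 0.0575 to 0.0989 when any array but replicate 1 was left out). Zscan4d was also called lower without replicate 1 (−1.03, adjusted p = 0.000952). The rest of this list, Zfp352, Tcstv3 and Tcstv1, differed upwards by 0.29, 0.25 and 0.16, and none of them was called with or without replicate 1. The list's mean level was 5.26, 4.63 and 4.67 in these replicates and 5.11 to 5.27 on the control arrays. Their part in the levels of the germ line genes was not tested.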

How the data were processed

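Total RNA of 6 samples, labelled with biotin, was hybridised to arrays of 1 colour, per the labels. The submitters' processing notes name RMA, and the authors deposited 1 value per row and sample. These deposited values were taken as log2 expression, since RMA gives base 2 and no base is stated. No source used here names the software or build. RMA gives every array the same distribution, which hides any shift common to all genes.

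Groups and replicate numbers come from the sample titles. Of 33649 rows, 23521 carry a single gene in the platform annotation, and the row with the highest mean stood for a gene, which gave 22180 genes. Older symbols were updated through RefSeq (GRCm38.p6). limma (version 3.58.1, R version 4.3.3) was fitted to all 6 arrays by lmFit and eBayes, two-sided, with Benjamini-Hochberg adjustment over 22180 genes and a threshold of 0.05; adjusted p-values for genes come from this fit. SE is limma's moderated error. The fit was tested on simulated data.

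Every listed gene with a row was to be named, by array where called or different by at least 0.5; of each other list up to 4 called genes, of marker lists up to 3. Members and lists were chosen with earlier results of these data known, so no list was tested. Alternatives were a replicate block, leaving out each array, a level filter, a trend with robust prior, the mean of a gene's rows, centring, quantile normalization and a fold limit. Promoters and miRNAs are RefSeq's. Of listed genes outside the main list, Fkbp6, Tdg, Prm2 and Zscan4f had no row of their own.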

Additional observations from a re-analysis of the deposited data

How the results depend on the processing

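The labels state no pairing of samples. Same-numbered samples of the groups did not deviate together (correlations 0.02, 0.02 and 0.01 over genes), but 3 arrays a group cannot show whether they were paired. With the replicate number as a block 964 genes rose and 1329 fell, and of the germ line genes 3 rose and 3 fell, in place of 7 and 4. Leaving out an array gave 685 to 2484 higher and 1043 to 2911 lower genes, and 3 to 7 higher and 2 to 11 lower germ line genes. The highest of these counts came without miR-302 replicate 1. At least 1.5-fold was reached by 636 higher and 925 lower genes. At or above the median level, 21 germ line genes were tested and 4 rose and 4 fell, where 1815 of all 11090 such genes rose and 2479 fell. Tdrkh, Tdrd5, Tex15, Dnd1 and Rec8 kept their call in every fit run that held them (Tdrkh lies below the median level). The log2 difference changed sign when an array was left out in Dazl (−0.89 to 0.52), Brdt (−0.035 to 0.0317), Tex12 (−0.10 to 0.34), Hormad2 (−0.31 to 0.28), Spo11 (−0.19 to 0.005), Piwil1 (−0.243 to 0.0867), Piwil4 (−0.13 to 0.14), Asz1 (−0.32 to 0.04), Tdrd6 (−0.11 to 0.10) and Tdrd7 (−0.115 to 0.025); the cause was not tested. No sign changed under the other alternatives.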

Other observations

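Genes outside the list that had the widest gap between miR-302 replicate 1 and replicates 2 and 3 included members of the Zscan4 family, expressed in 2-cell embryos and in a small share of ESCs. Zscan4e was 8.60 ± 0.05 (SD, n = 3) in control cells and 7.89, 4.10 and 4.14 in miR-302 replicates 1, 2 and 3, the largest gap of all genes tested. Zscan4b was 7.75 ± 0.08, and 6.91, 4.99 and 4.45. Zscan4b fell by 2.30 on the log2 scale (limma, adjusted p = 0.0392), and Zscan4e was called without replicate 1 only (−4.48, adjusted p = 2.49e-05; adjusted p = 0.0681 with it). In these genes replicate 1 lay below the control arrays, unlike in Dazl. Zscan4a did not follow them, at 5.92 ± 0.16 (SD, n = 3) in control cells and 6.01, 5.91 and 5.79 with miR-302 (−0.02; limma, adjusted p = 0.941). Copies of the family are near-identical, and their rows are uncertain for that reason. All were chosen after their values were seen.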
